A study of Mus musculus with 69 samples.

Results

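The genes described here encode subunits of Polycomb repressive complex 2 (PRC2), the enzyme that methylates lysine 27 of histone H3, and one demethylase that removes this methylation. They were chosen by name, as the rows of the mRNA-seq count table for Ezh2, Ezh1, Suz12, Eed, Jarid2, Mtf2, Phf19, Aebp2, Rbbp4 and Kdm6b. All 10 genes were found among the 16263 genes of the table, and all 10 passed the filter on low counts that 14061 genes passed. The rule uses names and no measured value.

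The cells were J1 mouse embryonic stem cells (ESCs), a line from the inner cell mass of 129S4/SvJae blastocysts. WT cells carried no edit, and the mutant clones Mut18 and Mut43 carried the H3.3K27R change, a lysine-to-arginine substitution at position 27 of the histone variant H3.3, introduced with CRISPR-Cas9 in both alleles of H3f3a and of H3f3b. The 3 lines were each measured in 2 mRNA-seq and 2 ATAC-seq libraries described as biological replicates, and the comparison asked how transcription behaves when this lysine can no longer be modified on H3.3. Each mutant line is 1 clone that had passed through successive rounds of editing, and WT is 1 line. The mutation and the history of the lines therefore cannot be told apart. The tests treat libraries as replicates. Their p-values and the SDs given below reflect spread among libraries of these 3 lines, not among further lines of each genotype. The lines were grown on feeder cells and then without them for the last passages before harvest.

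PRC2 is built around a core in which Ezh2 or its paralog Ezh1 is the methyltransferase, Eed binds the methylated product and stimulates the enzyme, Suz12 holds the complex together, and Rbbp4 or its paralog Rbbp7 binds histones. Accessory subunits define alternative forms of the complex. One form contains a Polycomb-like protein (Phf1, Mtf2 or Phf19), and another contains Jarid2 and Aebp2. In ESCs trimethylation of H3K27 covers the promoters of many silent developmental genes, and the demethylases Kdm6a and Kdm6b remove it. Acetylation and methylation cannot occupy the same lysine, and arginine at this position is a substrate for neither.

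Most of the chosen genes for PRC2 subunits were more abundant in the mutant ESCs, and the increases were unequal. Phf19 was 2.05-fold higher, Ezh1 and Suz12 were each 1.74-fold higher, Jarid2 was 1.21-fold and Mtf2 1.20-fold higher, and Aebp2 was 1.11-fold higher. Rbbp4 was lower, at 0.926 of the WT level. Ezh2, Eed and Kdm6b did not pass the test. By edgeR's quasi-likelihood test of the 4 mutant against the 2 WT libraries, 7 of the 10 genes were called at an adjusted p under 0.05, 6 higher and 1 lower. The same test called 48% of all genes, 23.5% higher and 24.5% lower, so a call by itself was common in this comparison. Beyond 2-fold, 1 of the 10 genes (Phf19) was called, against 8.93% of all genes. On the log2 scale the median change was 0.20 for the 10 genes and −0.0041 for all tested genes. For each of the 10 genes the 4 mutant libraries lay on one side of both WT libraries, above them for 7 genes and below them for 3 (Ezh2, Rbbp4 and Kdm6b). The mutant libraries were all above WT for 29.4% of all tested genes and all below for 30.4%, or 59.8% together, so this separation too was common.

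**Figure D1:**
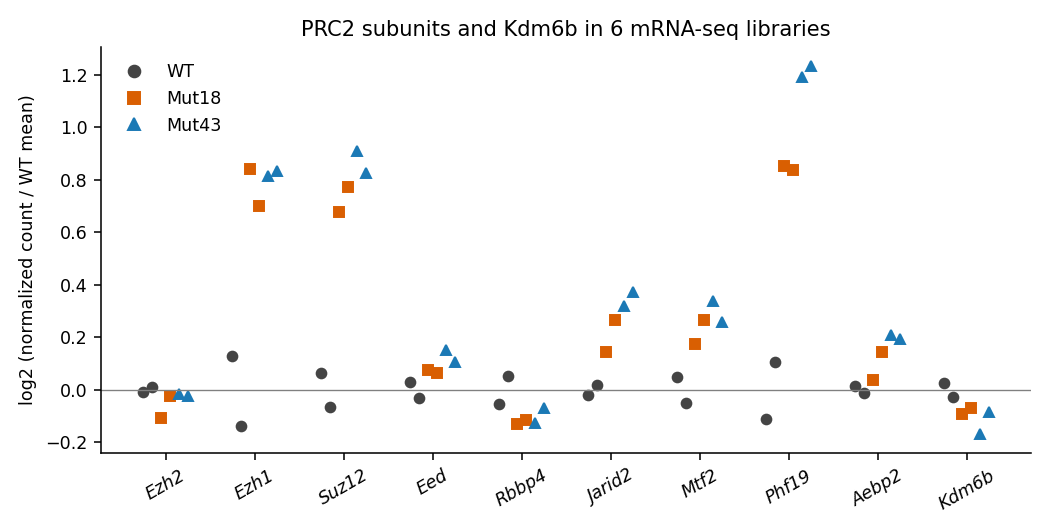
Normalized counts of the 10 genes in each mRNA-seq library, as the log2 ratio to the mean of the WT libraries (vertical axis), with 1 point per library and the shape and colour giving the line. Points of Phf19, Ezh1 and Suz12 from the mutant clones sit far above the WT points, those of Jarid2 and Mtf2 sit a little above them, and those of Ezh2, Rbbp4 and Kdm6b sit slightly below.

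Among the core subunits, the catalytic pair moved unequally. Ezh2 (chr6:47530139-47595341, minus strand), the main H3K27 methyltransferase of dividing cells, had normalized counts of 2824 and 2860 for WT, 2635 and 2794 for Mut18, and 2806 and 2796 for Mut43. The lines were nearly level, and 1 Mut18 library was lowest. Its log2 fold change was −0.043 (SE 0.041, 95% confidence interval −0.13 to 0.043, adjusted p = 0.407). Ezh1 (chr11:101191115-101226463, minus strand), the less active paralog that is best known from non-dividing cells, had normalized counts of 463 and 385 for WT, 760 and 689 for Mut18, and 746 and 756 for Mut43. Every mutant library was well above both WT libraries. The log2 fold change of Ezh1 was 0.80 (SE 0.074, adjusted p = 2.49e-08), and it lay between 0.68 and 0.94 when any 1 library was left out.

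Suz12 (chr11:79993106-80034123, plus strand), the scaffold without which the complex falls apart, had normalized counts of 4520 and 4130 for WT, 6914 and 7379 for Mut18, and 8125 and 7666 for Mut43. The groups did not overlap, and both Mut43 libraries were above both Mut18 libraries. The log2 fold change was 0.80 (SE 0.054, adjusted p = 2.41e-10), the lowest p of the 10 genes, with 0.74 to 0.87 when any 1 library was left out. Eed (chr7:89954654-89980983, minus strand), the reader of the methyl mark, had normalized counts of 3552 and 3402 for WT, 3658 and 3638 for Mut18, and 3859 and 3740 for Mut43. Its mutant libraries were all above WT by a narrow margin. The log2 fold change of Eed, 0.10 (SE 0.041, adjusted p = 0.0516), fell just outside the threshold. It passed under some other settings and failed under others, as given further on.

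Rbbp4 (chr4:129307100-129335370, minus strand), a histone-binding subunit that PRC2 shares with other chromatin complexes, had normalized counts of 6443 and 6948 for WT, 6119 and 6176 for Mut18, and 6138 and 6380 for Mut43. The WT libraries differed from each other by more than the lower of them differed from the mutants. Its log2 fold change was −0.11 (SE 0.040, adjusted p = 0.0266). Without WT replicate 2 it was −0.050 (adjusted p = 0.467), and the call was also lost without Mut18 replicate 2 or Mut43 replicate 1.

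The promoters of Suz12 and Ezh1, the core genes that were called higher, are shown. An ATAC-seq peak overlapped each of them in all 6 libraries, as it did a promoter of Rbbp4, Mtf2, Ezh2, Eed and Jarid2. The sequences are the 250 bases before the RefSeq start on GRCm38, read 5′ to 3′ on the strand of the gene, at chr11:79992856-79993105 (plus) for Suz12 and chr11:101226464-101226713 (minus) for Ezh1. Capitals mark the letters TTTCCCGC, a form of the E2F motif searched on both strands.
Suz12: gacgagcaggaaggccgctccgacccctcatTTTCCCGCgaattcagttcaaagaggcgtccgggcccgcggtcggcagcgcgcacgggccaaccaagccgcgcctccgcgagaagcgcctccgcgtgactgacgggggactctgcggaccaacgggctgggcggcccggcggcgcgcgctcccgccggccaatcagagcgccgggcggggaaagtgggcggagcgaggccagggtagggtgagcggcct
Ezh1: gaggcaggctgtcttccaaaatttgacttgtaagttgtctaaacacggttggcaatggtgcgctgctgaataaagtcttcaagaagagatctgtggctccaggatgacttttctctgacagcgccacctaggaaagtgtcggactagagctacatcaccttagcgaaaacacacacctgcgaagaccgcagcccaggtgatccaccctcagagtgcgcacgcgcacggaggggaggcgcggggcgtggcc
The Suz12 window held 37 CpG dinucleotides, more than 97.8% of the 32851 promoter windows of this length, and the Ezh1 window held 14, more than 70.6% of them. The median window held 6. The E2F letters occurred in 0.895% of all windows, once in that of Suz12 and not in that of Ezh1. The other E2F form searched, TTTGGCGC, occurred in 0.417% of all windows and in none of the 13 windows found for 9 of the 10 genes. Letters of other motifs were searched as well. CCAAT (NF-Y) occurred in 6 of the 13 windows and 33.8% of all windows, and GGGCGG (SP/KLF) in 8 and 32.7%. CCGGAAG (ETS) occurred in 0 and 6.91%, and CACGTG (E-box) in 1 and 6.02%. CCAAT was found for Aebp2, Ezh2, Jarid2, Mtf2, Rbbp4 and Suz12, and GGGCGG for Aebp2, Jarid2, Mtf2, Phf19, Rbbp4 and Suz12.

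The 4 accessory subunits among the genes chosen by name were all called higher, where 23.5% of all tested genes were called higher. Outside that choice, the Polycomb-like gene Phf1 was not called (log2 fold change 0.061, adjusted p = 0.756 by the same test). Epop and Lcor were called higher and Lcorl was called lower, as given further on. Phf19 (chr2:34893757-34914026, minus strand), a Polycomb-like protein that binds H3K36 methylation through its Tudor domain, had read counts, here before normalization, of 108 and 125 for WT, 205 and 201 for Mut18, and 255 and 263 for Mut43. It was low in every library, separated WT from the mutants, and within the mutants separated the clones. The log2 fold change was 1.03 (SE 0.13, 95% confidence interval 0.76 to 1.31, adjusted p = 1.45e-06). The interval includes 1, and the estimate fell below 2-fold without WT replicate 1 (0.935), Mut43 replicate 1 (0.986) or Mut43 replicate 2 (0.965) and when libraries were scaled by their totals alone (0.995).

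The part of the Phf19 promoter that held the E2F letters is shown next to the Suz12 promoter for comparison, and capitals mark them. It lies at chr2:34914166-34914195 on GRCm38 and is read on the minus strand of the gene, where the letters appear as the reverse complement. Only 30 bases are shown, because no stretch of that length in the window lay outside annotated exons of coding transcripts.
Phf19: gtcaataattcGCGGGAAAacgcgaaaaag
Of the windows of these genes, those of Suz12 and Phf19 held the letters TTTCCCGC. The motif was chosen after the sequences had been seen, and a match of letters is a description of the window. The Phf19 window held 31 CpG dinucleotides, more than 94.8% of all windows.

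Mtf2 (chr5:108065674-108109004, plus strand), the Polycomb-like protein that recruits PRC2 to unmethylated CpG-rich DNA, had normalized counts of 6264 and 5837 for WT, 6830 and 7264 for Mut18, and 7656 and 7240 for Mut43. The mutants were moderately higher in every library. Its log2 fold change was 0.26 (SE 0.045, adjusted p = 6.70e-05). Jarid2 (chr13:44729474-44921643, plus strand), a member of the Jumonji family without demethylase activity that recruits and stimulates PRC2, had normalized counts of 7632 and 7834 for WT, 8533 and 9296 for Mut18, and 9657 and 10017 for Mut43. Again no mutant library reached down to WT, and Mut43 was above Mut18. The log2 fold change of Jarid2 was 0.28 (SE 0.049, adjusted p = 8.60e-05).

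Aebp2 (chr6:140622663-140678472, plus strand), a zinc finger protein that joins Jarid2 in the same form of the complex, had normalized counts of 1289 and 1267 for WT, 1311 and 1410 for Mut18, and 1477 and 1461 for Mut43. The lowest mutant library was close to WT. The log2 fold change was 0.15 (SE 0.050, adjusted p = 0.0203). This call was lost without either WT replicate (adjusted p = 0.0567 and 0.0974) or either Mut43 replicate (0.0513 and 0.052) and when libraries were scaled by their totals alone (0.0759).

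Kdm6b (chr11:69398508-69413675, minus strand), the Jumonji demethylase also called JMJD3, had normalized counts of 612 and 590 for WT, 563 and 572 for Mut18, and 534 and 567 for Mut43. The values were slightly lower in all mutant libraries. Its log2 fold change was −0.10 (SE 0.062, 95% confidence interval −0.23 to 0.026, adjusted p = 0.178). Exons of Kdm6b, Ezh2, Suz12, Eed, Mtf2 and Rbbp4 overlap exons of genes on the other strand, and whether the counting used strand is not stated, so reads of such pairs cannot be told apart.

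**Figure D2:**
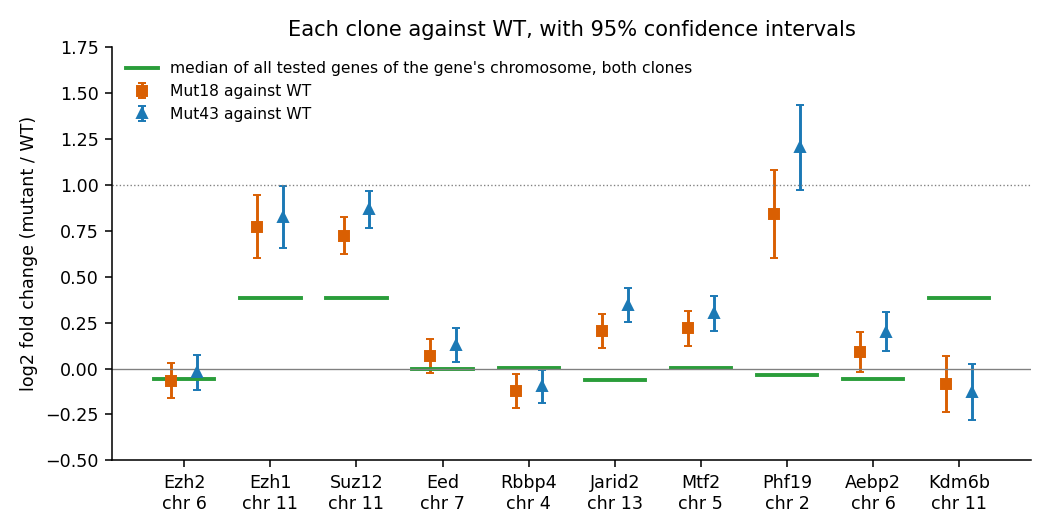
Log2 fold change of each clone against WT (vertical axis) for the 10 genes, with 95% confidence intervals, 2 libraries per line, and green bars at the median of all tested genes on the same chromosome. The dotted line marks a 2-fold increase. Ezh1 and Suz12 lie above and Kdm6b lies below the raised median of chromosome 11, and only the Mut43 point of Phf19 lies beyond 2-fold.

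The genes Ezh1, Suz12 and Kdm6b lie on chromosome 11, where genes as a whole were higher in the mutants. The median log2 fold change of its 1184 tested genes was 0.39, against −0.022 for the 12263 genes of the other autosomes, and 67.1% of its genes were called higher and 7.09% lower. In Mut18 the median of chromosome 11 was 0.38, and it was 0.38 in Mut43 as well. Ezh1 and Suz12 were above 87.5% and 87.4% of the genes on the chromosome, and Kdm6b was above 13.3%. Measured against the median of its own chromosome, Ezh1 was higher by 0.42 on the log2 scale (95% confidence interval 0.26 to 0.58) and Suz12 by 0.42 (0.31 to 0.53). Kdm6b fell by 0.48 on this measure (95% confidence interval of the difference −0.61 to −0.35, adjusted p = 2.72e-06), where on the whole-genome scale it did not pass the test. The cause of the shift of chromosome 11 was not tested.

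The other 7 genes lie on chromosomes whose medians were within 0.1 of 0 on the log2 scale. Phf19 kept its value on the chromosome scale (1.07), as did Mtf2 (0.26) and Rbbp4 (−0.11). Jarid2 was at 0.34 and Aebp2 at 0.20. Ezh2 changed sign, to 0.015, and was not called on either scale. On the chromosome scale 9 of the 10 genes were called, 7 higher and 2 lower, against 45.2% of all genes (21.8% higher, 23.4% lower), with Eed (0.10, adjusted p = 0.0431) and Kdm6b added.

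**Figure D3:**
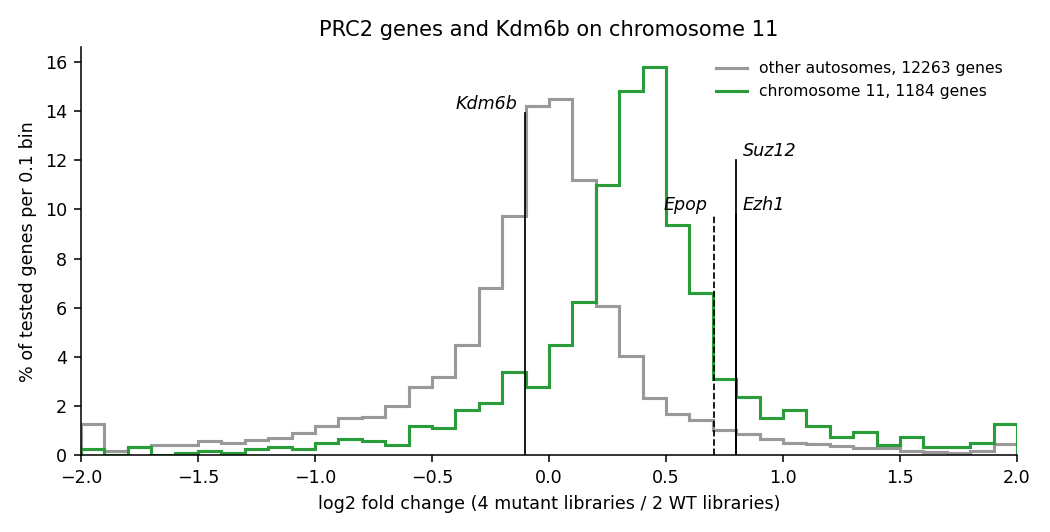
Distribution of log2 fold changes between the mutant and WT libraries (horizontal axis) for the 1184 tested genes of chromosome 11 and the 12263 of the other autosomes, as percent of genes per bin (vertical axis), with values beyond the axis placed in the outermost bins. Vertical lines mark Kdm6b, Suz12, Ezh1 and, dashed, Epop. The whole chromosome 11 distribution is shifted to the right, Kdm6b lies in its lower part and the PRC2 genes in its upper part.

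Each clone was then set against the same WT libraries. In Mut18, 6 of the 10 genes were called, against 41.3% of all genes (20.3% higher, 21% lower). Phf19 (0.84), Ezh1 (0.77), Suz12 (0.72), Mtf2 (0.22) and Jarid2 (0.21) were higher on the log2 scale, and Rbbp4 (−0.12) was lower. The Rbbp4 call was lost with DESeq2 (adjusted p = 0.056), without the filter on low counts (0.0609), and without Mut18 replicate 1 (0.126), Mut18 replicate 2 (0.0856), Mut43 replicate 1 (0.0564) or WT replicate 2 (log2 fold change −0.062, adjusted p = 0.385). In Mut43, 7 were called, all higher, against 46.8% of all genes in either direction and 22.9% higher. They were Phf19 (1.21), Suz12 (0.87), Ezh1 (0.82), Jarid2 (0.35), Mtf2 (0.30), Aebp2 (0.20) and Eed (0.13). The Eed call in Mut43 was lost with library totals alone (adjusted p = 0.135), without Mut43 replicate 1 (0.132) and without WT replicate 2 (0.142). Rbbp4 in Mut43 was at −0.097 (adjusted p = 0.0762).

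In the direct test of Mut18 against Mut43, edgeR called 0 of the 10 genes, against 0.327% of all genes, and DESeq2 called 0 as well. At an unadjusted p under 0.05, 4 of them were lower in Mut18 than in Mut43, against 8.52% of all genes in either direction. The largest gap was that of Phf19, with a log2 difference of −0.37 (SE 0.10, 95% confidence interval −0.58 to −0.15, unadjusted p = 0.00152, adjusted p = 0.169). Suz12 (−0.14, interval −0.24 to −0.046), Jarid2 (−0.14, −0.23 to −0.050) and Aebp2 (−0.11, −0.22 to −0.0039) were the others. The Kdm6b difference was 0.043 (−0.11 to 0.20).

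Levels of different genes were set side by side as RPKM, counts per kilobase of annotated exon scaled to the size of the library. Suz12 was highest on average, from 55.4 to 109 RPKM over the 6 libraries, followed by Mtf2 (68.0 to 89.2 RPKM), Eed (59.0 to 66.9 RPKM), Jarid2 (52.1 to 68.4 RPKM) and Rbbp4 (46.4 to 52.7 RPKM). Ezh2 followed at 26.2 to 28.4 RPKM and Aebp2 at 8.54 to 9.95 RPKM. At the low end were Ezh1 (3.44 to 6.78 RPKM), Kdm6b (5.10 to 5.84 RPKM) and Phf19 (1.39 to 3.51 RPKM). Of the 9 neighbouring pairs in this order, 5 had ranges that did not overlap. The ranges of Suz12 and Mtf2, Eed and Jarid2, Jarid2 and Rbbp4, and Ezh1 and Kdm6b overlapped. With the length of the longest transcript in place of all exons, Eed and Mtf2 preceded Suz12. Ezh2 (62.7 to 68.1 RPKM) then lay within the range of Jarid2 (60.6 to 79.6 RPKM), so the order of the 6 highest genes rests on the length used. Ezh1 (6.08 to 12.0 RPKM) was then above Kdm6b (5.33 to 6.11 RPKM) in every library, so their order in WT rests on the length as well.

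**Figure D4:**
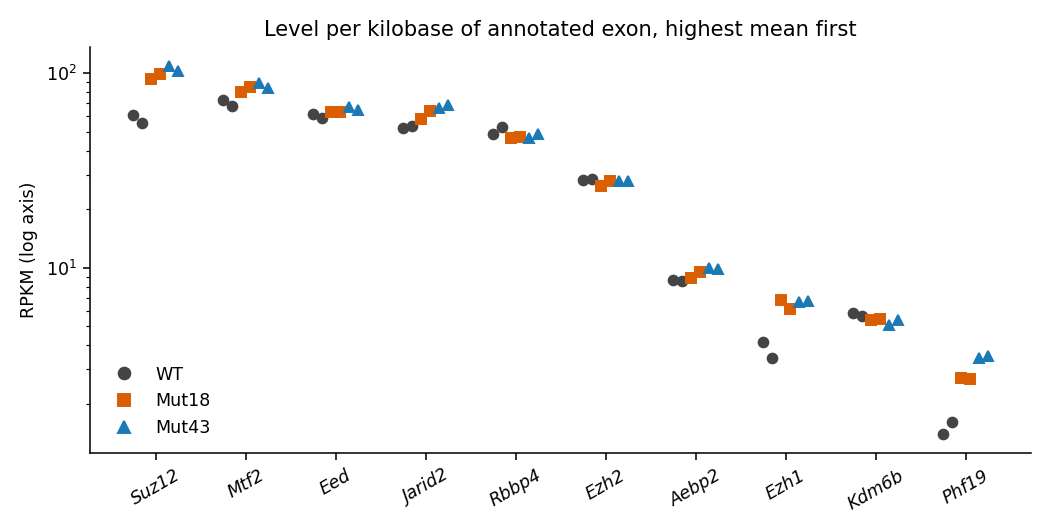
Level of each gene in RPKM (vertical axis, logarithmic), per library, ordered from the highest mean to the lowest. Suz12 crosses from below Mtf2 in WT to above it in the mutants, Ezh1 crosses from below Kdm6b to above it, and Phf19 stays lowest throughout. Neither crossing was seen with the length of the longest transcript.

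The make-up of the transcript pool, calculated per length, differed between the groups. Ezh1 made up 12.8% and 10.8% of the Ezh1 and Ezh2 transcripts in WT, and 18.1% to 20.6% in the mutants. With the length of the longest transcript its share was 9.79% and 8.19% in WT, and 14.0% to 16.0% in the mutants. Suz12 stood at 2.16 and 1.95 times the level of Ezh2 in WT, and at 3.54 to 3.91 times in the mutants (1.02 and 0.92, and 1.67 to 1.85, with the length of the longest transcript). Relative to Eed, it went from 0.985 and 0.94 in WT to between 1.46 and 1.63. In WT the scaffold was thus slightly below Eed in level, and in every mutant library it was above. With the longest transcript, Suz12 stayed below Eed in every library, at 0.602 and 0.574 in WT and 0.893 to 0.995 in the mutants.

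Among the Polycomb-like genes, Mtf2 accounted for 94.4% to 96.1% in every library. The share of Phf19 was 1.83% and 2.27% in WT and 3.01% to 3.94% in the mutants. The Jarid2 to Mtf2 ratio, which sets a marker subunit of one form of the complex against one of the other, was 0.751 ± 0.051 (SD, n = 2) in WT and 0.759 ± 0.036 (SD, n = 4) in the mutants, closer than the spread within either group. Kdm6b made up 25.6% ± 0.76 (SD, n = 2) of the Kdm6a, Kdm6b and Uty transcripts in WT and 25.1% ± 0.51 (SD, n = 4) in the mutants. With the length of the longest transcript the means were 19.3% in WT and 18.5% in the mutants. These are levels of mRNA. In bulk samples fewer cells expressing a gene and less RNA per cell cannot be told apart.

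Beyond the chosen genes, 8 of 9 further PRC2 genes and H3K27 demethylases were in the table and tested, and Ezhip was not in the table. Of the 8, 3 were called higher, 3 lower and 2 were not called, against 23.5% higher and 24.5% lower among all tested genes. Epop, which links PRC2 to elongin and also lies on chromosome 11, rose from 2895 and 3078 normalized counts in WT to 4574 to 5176 in the mutants (log2 fold change 0.71, SE 0.049, adjusted p = 4.04e-10). Against the median of chromosome 11 it was at 0.33. Lcor, whose locus also encodes a PRC2-associated protein, rose from 73.2 and 67.6 to between 108 and 128 normalized counts (0.79, adjusted p = 8.99e-05), and its paralog Lcorl fell by 0.26 on the log2 scale (adjusted p = 0.0228).

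Rbbp7, the paralog of Rbbp4, fell from 6229 and 6317 normalized counts to between 4822 and 5155 (log2 fold change −0.33, SE 0.039, adjusted p = 4.69e-07). Per length, Rbbp4 made up 26.2% ± 0.84 (SD, n = 2) of the pair in WT and 29.3% ± 0.92 (SD, n = 4) in the mutants. With the length of the longest transcript the means were 33.9% in WT and 37.5% in the mutants. The demethylase Kdm6a fell by 0.21 on the log2 scale (adjusted p = 0.000845). Rbbp7 and Kdm6a lie on the X chromosome, whose median was −0.14, and relative to it they were at −0.18 and −0.061 (95% confidence interval −0.16 to 0.036). Uty, the Y-linked relative of Kdm6a, was higher by 0.43 (adjusted p = 0.000214), with 528 and 403 normalized counts in WT and 611 to 640 in the mutants. Relative to the median of the few tested genes of the Y chromosome it was at −0.86. That median was taken as fixed and its own error was not counted, so no reversal is read from this value. Phf1 (0.061, adjusted p = 0.756) and Kdm7a (0.11, adjusted p = 0.301) were not called.

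Other genes of H3K27 biology moved in both directions, as did all tested genes, of which 23.5% were called higher and 24.5% lower. The counts below are not read as particular to these complexes. Of 21 genes for subunits of PRC1, the complex that ubiquitylates histone H2A, 4 were higher and 7 lower, with a median of −0.032, and none passed 2-fold. Of 11 genes of PR-DUB, which removes that ubiquitin, and its partners, 2 were higher and 4 lower, with a median of −0.0030. Asxl3 was the one beyond 2-fold, with 76.1 and 72.5 normalized counts in WT and 20.4 to 39.4 in the mutants (log2 fold change −1.40, adjusted p = 1.75e-05). Of 5 H3K36 methyltransferase genes, 1 was higher and 2 were lower, with a median of −0.031.

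Developmental genes known as targets of PRC2 were mostly near silence. Of 35 listed, 31 were in the table and 22 passed the filter on low counts. Among those, 6 were higher and 13 lower, with a median of −0.77, against 23.5% higher and 24.5% lower among all tested genes. Genes that pass through the group where they are high are favoured by the filter on low counts. Fgf5, a growth factor of the primed epiblast, went from 279 and 292 normalized counts in WT to between 41.7 and 52.6 in the mutants (log2 fold change −2.58, adjusted p = 7.96e-13). T, the mesoderm regulator Brachyury, went from 247 and 243 to between 27.5 and 50.1 (−2.63, adjusted p = 2.93e-11). The listed targets moved both ways in the cells in which Suz12, Ezh1 and Phf19 were higher.

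The ESC label was checked against markers, in a comparison that called 23.5% of all tested genes higher and 24.5% lower. All 10 ESC markers were expressed, from Tdgf1 (13257 to 14549 normalized counts) to Klf4 (801 to 1066), with 8 higher and 2 lower in the mutants, all within 2-fold. Fibroblast markers, which feeder cells would bring, summed to 4537 and 3219 normalized counts for WT, 2676 and 2726 for Mut18, and 2060 and 2076 for Mut43. Of the 9 tested, 7 were lower in the mutants and none was higher, led by Fbn1 (−1.27), Postn (−2.22), Col3a1 (−2.16) and Dcn (−1.84) on the log2 scale, and none of the list was at 0. Their part in the PRC2 values was not tested. Without WT replicate 1, the library with the highest fibroblast sum, the log2 fold changes were 0.94 for Ezh1, 0.87 for Suz12 and 0.935 for Phf19.

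Markers of other lineages were mixed, where 23.5% of all tested genes were called higher and 24.5% lower. The 3 neural markers summed to 3066 and 2839 normalized counts in WT and 1219 to 1430 in the mutants, with Nes (−1.51) and Sox1 (−1.10) lower and Pax6 higher. Of 5 primitive endoderm markers, 1 was higher and 1, Foxa2, was lower, with 10.7 and 14.7 normalized counts in WT and 0 to 2.03 in the mutants, a gene that the filter on low counts keeps through its WT values. Of 3 trophoblast markers, 1 was higher and 2 lower. The sums of the primitive endoderm markers (139 and 93 in WT, 92 to 123 in the mutants) and of the trophoblast markers (1476 and 1567, 1360 to 1521) overlapped between the groups. Of the edited genes, H3f3a was lower (log2 fold change −0.23, adjusted p = 0.00016), and H3f3b, on chromosome 11, was at 0.031 (adjusted p = 0.637) and, relative to the median of that chromosome, at −0.35 (95% confidence interval −0.45 to −0.25, adjusted p = 7.73e-06). These counts do not read the edited codon and do not check the genotype.

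Chromatin accessibility at the promoters was read from the ATAC-seq peaks of each library. A peak lay within 1000 bp of an annotated start of 8 of the 10 genes in all 6 libraries, and the same held for 88.3% of 13962 tested genes with a place in the annotation. At Suz12 the promoter peak had a fold enrichment over background of 7.62 and 8.21 for WT, 6.82 and 7.73 for Mut18, and 7.49 and 7.63 for Mut43. At Ezh1 the values were 8.66 and 10.36, 9.84 and 10.33, and 10.48 and 10.91. The lines overlapped at Suz12, and at Ezh1 both Mut43 values were above all others by a small margin. The lists carry no read numbers, so these enrichments were not tested between lines.

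**Figure D5:**
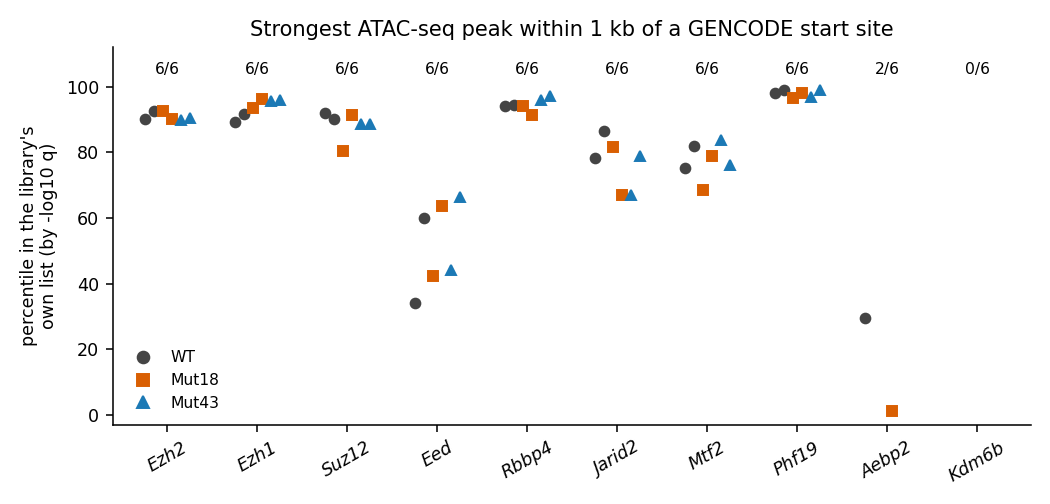
Rank of the strongest ATAC-seq peak within 1000 bp of an annotated start, as a percentile by −log10 q within the list of its own library (vertical axis), with 1 point per library that had a peak and the number of libraries with a peak out of 6 above each gene. Peaks of Ezh2, Ezh1, Suz12, Rbbp4 and Phf19 rank high in all 6 libraries, those of Eed near the middle, and Aebp2 and Kdm6b have few or none.

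At Phf19 the strongest peak lay at an internal annotated start, 8839 bp into the gene, with fold enrichments of 9.84 to 12.2. Near the 5′ end a weaker region 746 bp into the gene had a peak in all 6 libraries (3.85 to 5.04). A region 201 bp into the gene had a peak in WT 1, WT 2 and Mut18 1 and in none of the other three. The 250 bases before the RefSeq start, from which the stretch with the E2F letters was printed, met a peak in 1 of the 6 libraries. At the 5′ end of Eed the fold enrichments were 4.47 to 8.17, and in WT 1 the strongest peak near an annotated start (6.06) lay 23549 bp into the gene. Near an annotated start of Jarid2 they were 4.89 to 5.98.

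Aebp2 had a weak promoter peak in WT 1 (fold enrichment 4.10) and Mut18 2 (3.77) and in no other library. Kdm6b had none near its GENCODE starts. With RefSeq starts added, some of which lie upstream, Kdm6b had a promoter peak in all 6 libraries, and peaks at −4218 and −5311 bp from the GENCODE start were called in all 6, with enrichments of 3.49 to 4.37 and 4.28 to 4.73. The count of genes with a promoter peak in all 6 libraries was then 9.

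Within the 10 genes and 10000 bp on each side, the peaks merged into 55 regions. Of these, 35 (63.6%) were present in all 6 libraries, against 54.7% of 89596 regions in the genome. No region was limited to both WT libraries (3.25% of all regions were), and none to the 4 mutant libraries (0.733% of all regions were). The remaining 20 had other patterns. One of them, 49958 bp from the start of Suz12 and beyond its 3′ end, had peaks in both Mut18 libraries and in no other (fold enrichment 4.79 and 5.54).

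The profile over the 6 libraries of the 3 genes with the lowest p was compared with 11076 genes of at least 50 normalized counts on average, by Pearson's r of log2 normalized counts. Nr5a2 (r = 0.9988) and Odf2 (r = 0.9987) were most like Suz12, Nxf1 (0.9993) and Ccdc73 (0.9974) most like Ezh1, and Tdh (0.9986) and Nol6 (0.998) most like Phf19. None of the 6 lies on chromosome 11. Likeness here is of shape and not of size, since Nxf1 differed by 0.14 and Ezh1 by 0.80 on the log2 scale. With 6 libraries in 3 lines, such r values rest largely on the gap between WT and the mutants.

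The whole table held 14992756 to 15143998 counts per library, so the libraries were of equal depth within about 1%, and the reason for such close totals is not given in the sources used here. At this depth the 10 genes had 108 to 9872 reads in every library, so that counting error was largest for Phf19. Replicates of a line differed by more than counting noise, with a chi-square per gene of 3.08 in WT, 2.08 in Mut18 and 1.81 in Mut43. With 2 WT libraries, every comparison with WT rests on the same pair.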

How the data were processed

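The mRNA-seq file that the authors deposited holds raw read counts, as whole numbers for each gene. For ATAC-seq the authors deposited a peak list per library, replicates not pooled, with a fold enrichment over background (a ratio) and a −log10 q-value for each peak, used here as a description within a list. Reads were aligned to mm10 with the Drosophila genome (dm6) appended. The submitters' processing notes name STAR, Bowtie2 2.3.4.2, SAMtools, DESeq2, MACS2 and deepTools 3.3.0 without saying which step each served, and the counting program, annotation and use of strand are not given in the sources used here. ChIP-seq samples were not analysed here. Line and replicate of each sample come from its title.

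Counts were fitted in R 4.3.3 with edgeR 4.0.16 over the whole table (filterByExpr, minimum count 10, TMM, quasi-likelihood F-test, Benjamini-Hochberg adjustment over 14061 genes), WT (n = 2) against the mutants (n = 4). Each clone was contrasted in a fit with 3 groups. Calls were made at an adjusted p under 0.05. The procedure was tested on simulated data. Of 16263 symbols, 15644 matched GENCODE M21 (GRCm38, the same build as mm10), 478 matched through RefSeq synonyms and 141 were left without a place. Values relative to a chromosome used its median log2 fold change in each clone as an offset. RPKM was calculated here from the counts with GENCODE exon lengths. Promoter sequences are those of the RefSeq table for GRCm38. Those of Suz12 and Ezh1 lie outside annotated exons of coding transcripts. The Phf19 window had no such stretch of 30 bases. The 30 bases printed around the E2F letters therefore overlap an annotated exon at least in part. Peaks that overlapped by at least 1 bp were merged. Python 3.11.15 was used for peaks and figures.

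All 10 genes and all further PRC2 genes and demethylases are named, as are H3f3a and H3f3b, the up to 4 genes of each other list with the lowest p among those called and beyond 2-fold, and for each of the 3 genes with the lowest p the 2 most similar genes. Some genes that this rule names are not reported here. Other genes were named after their values were seen. The genes, lists and tests were chosen with earlier results of these data known. Alternatives were other scalings and filters, DESeq2 1.42.0, stricter thresholds, a replicate term, the mean of the clones, each library left out in turn, and other windows, starts and thresholds for peaks.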

Additional observations from a re-analysis of the deposited data

Results flagged for a closer look

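Ezh2 in the mutants had 1 library apart from the other 3, with 2635 normalized counts in Mut18 replicate 1 against 2794, 2796 and 2806. The gap was 0.93 of the range of the 4 libraries, above Dixon's critical value for 4 samples. Without this library Ezh2 was still not called. Lcor had 108 normalized counts in Mut43 replicate 1 against 125, 125 and 128 in the other mutant libraries, with a gap of 0.835 of the range. Chance alone exceeds this limit in about 1 of 20 groups, and both flags are within 4 libraries that hold 2 clones.

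The edited gene H3f3b differed between the clones, with a log2 difference of −0.186 for Mut18 minus Mut43 (adjusted p = 0.0402 by edgeR's quasi-likelihood test). Normalized counts were 11653 and 12025 in Mut18, 13554 and 13384 in Mut43, and 12377 and 12396 in WT, so the clones lay on either side of WT. None of the PRC2 genes or demethylases passed this test between the clones.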

How the results depend on the processing

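Over 14 planned settings and the 4 comparisons, 530 log2 fold changes of the 10 genes were recomputed, of which 496 kept their direction and their side of the threshold, 18 lost a call, 12 gained one and 4 changed sign. Those that changed sign were near 0 and not called, namely Ezh2 relative to its chromosome (0.015 for the mutants and 0.038 for Mut43 against WT), Ezh1 between the clones without Mut18 replicate 2 (0.017, and −0.125 at the other end of the values with 1 library left out) and Rbbp4 between the clones without Mut43 replicate 2 (0.002, and −0.054 at the other end). A 2-fold requirement left 1 gene in the mutants, 0 in Mut18, 1 in Mut43 and 17 of the 65 called genes of the other lists. Of all 14061 tested genes it left 461 higher and 794 lower in the mutants. The numbers were 392 and 666 in Mut18, and 491 and 957 in Mut43. Leaving out 1 mutant library gave 5 to 8 called genes for the mutants and 57 to 62 in the other lists. The same fits called 6221 to 6642 of all 14061 tested genes. Counts are not given for fits that were left with 1 library in a group. Eed was called with DESeq2's size factors (adjusted p = 0.0452), without a filter on low counts (0.036), with at least 1 CPM in 2 libraries (0.0397), with the mean of the clones (0.0352) and without Mut18 replicate 1 (0.0361). Eed was not called with library totals alone (adjusted p = 0.22), with DESeq2 (0.0581) or with the replicate block (0.0689). Nor was it called without Mut18 replicate 2 (0.0503), Mut43 replicate 1 (0.111) or Mut43 replicate 2 (0.0849). Its log2 fold change was 0.135 without WT replicate 1 and 0.074 without WT replicate 2. Rbbp4 lost its call without the filter (0.0518). Same-numbered libraries did not deviate together (r of −0.0539, 0.00319 and −0.0253 over 11076 genes), so the numbers do not pair them. With the replicate block 7 genes were called in the mutants, 6 in Mut18, 7 in Mut43, 0 between the clones and 63 in the other lists. Of all 14061 tested genes the replicate block called 6604 in the mutants, 5637 in Mut18, 6451 in Mut43 and 38 between the clones. A promoter peak in all 6 libraries was found for 7 to 8 genes over the planned peak settings and for 9 with RefSeq starts, a setting chosen after seeing the data. The cause of these shifts was not tested.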
